A study of Rattus norvegicus with 22 samples.

Results

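The 2 ATAC libraries of prefrontal cortex exposed to WIN, 1 labelled WIN and 1 labelled WIN+cocaine, were set against the 2 without WIN, labelled control and cocaine. These are 2 of the 4 ATAC libraries and 2 of the 22 samples of the series, which also holds RNA libraries that are not used here. The treatments were thus WIN, WIN with cocaine, control and cocaine, with 1 library each; what the control rats received is not stated in the labels. All came from male Sprague-Dawley rats. The series title places the cannabinoid exposure in adolescence. The labels name no dose, age at sampling, number of animals behind a library or day of preparation. The question put to these libraries is whether the open chromatin of WIN-exposed cortex differed from that of cortex without WIN, and whether it did so in the same places with and without cocaine.

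ATAC sequencing marks open chromatin: a transposase inserts adapters where DNA is not wrapped in nucleosomes, which includes active promoters and enhancers. WIN is a synthetic agonist of the cannabinoid receptors. CB1, the main cannabinoid receptor of the brain, sits largely on axon terminals, and in prefrontal cortex it dampens the release of GABA and glutamate. The signal here is that of whole frozen cortex, so fewer nuclei of a cell type and less open chromatin per nucleus cannot be told apart. The deposited regions carry coordinates and no gene names, and neither the labels nor the file name their genome build. Coordinates are given as deposited, without genes, and the tissue label was not checked against marker genes. The last active region on chromosome 1 ends at base 282561627, beyond the last gene of that chromosome in the GRCr8 annotation at base 270492571, so that annotation was not applied.

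Each library comes as intervals of open chromatin with a summit score, a whole number on a scale of the authors' own. The authors' merged track holds 99896 active regions, and every interval of every library fell in one of them. Of these regions, 49737 (49.8%) held an interval of all 4 libraries and are called shared. A region's score in a library is the highest summit score it holds there. Because scores are comparable only within a library, they are printed as deposited and compared as ranks: each was turned into a percentile rank over the shared regions, from 0 for the weakest to 100 for the strongest. Sequencing depth is unknown, so no counting error can be given for a score.

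Most library-wide measures did not set the WIN-exposed libraries apart. Median region scores over shared regions were 46 in WIN and 51 in WIN+cocaine, against 46 in control and 51 in cocaine. The upper quartiles were 71 in WIN and 79 in WIN+cocaine, against 71 in control and 79 in cocaine. These medians and quartiles were the same within each pair, and they differed between the libraries with and without cocaine. The highest single scores were 1217 in WIN and 794 in WIN+cocaine, against 1369 in control and 748 in cocaine. Covered length was the exception, at 28563834 bp in WIN and 29035933 bp in WIN+cocaine, while control covered 27804221 bp and cocaine 28430928 bp, so that the groups do not overlap. It was larger by 759613 bp in WIN than in control and by 605005 bp in WIN+cocaine than in cocaine (exact two-sided permutation p = 0.333, the smallest that 2 against 2 libraries allow). The number of intervals was larger by 1303 in WIN than in control and by 294 in WIN+cocaine than in cocaine (exact two-sided permutation p = 0.667).

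Nor were the WIN-exposed libraries the most alike in their ranking of open regions. Over the 49737 shared regions, Spearman's rho between WIN and WIN+cocaine was 0.832, the lowest of the 6 pairs of libraries. It was 0.854 between WIN and control and 0.872 between WIN+cocaine and cocaine, the highest of the 6. The median absolute difference in rank was 9.20 points between WIN and WIN+cocaine, against 8.13 points between WIN and control and 7.53 points between WIN+cocaine and cocaine. Each WIN-exposed library thus ranked regions more like its partner without WIN than like the other WIN-exposed library. These are descriptions over regions of the same 4 libraries, and regions are not replicates.

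Regions found open only with WIN were about as many as those found open only without it. Both WIN-exposed libraries, and neither of the others, held 2041 active regions. Both libraries without WIN, and neither WIN-exposed one, held 1850. Pairs that mix the groups held numbers of the same size: 2236 regions were held by WIN and cocaine only, 2038 by WIN+cocaine and control only, and 1855 by WIN and control only. WIN+cocaine and cocaine alone shared the most, 4054. The 2041 regions were weak and narrow, with median scores of 24 in WIN and 26 in WIN+cocaine and a median width of 309 bp. The 1850 regions were alike in this, at 25 in control, 26 in cocaine and 303 bp. The lower of the 2 scores was under 30 in 84.0% of the WIN-exposed-only regions and in 85.0% of those held by the others only.

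**Figure D1:**
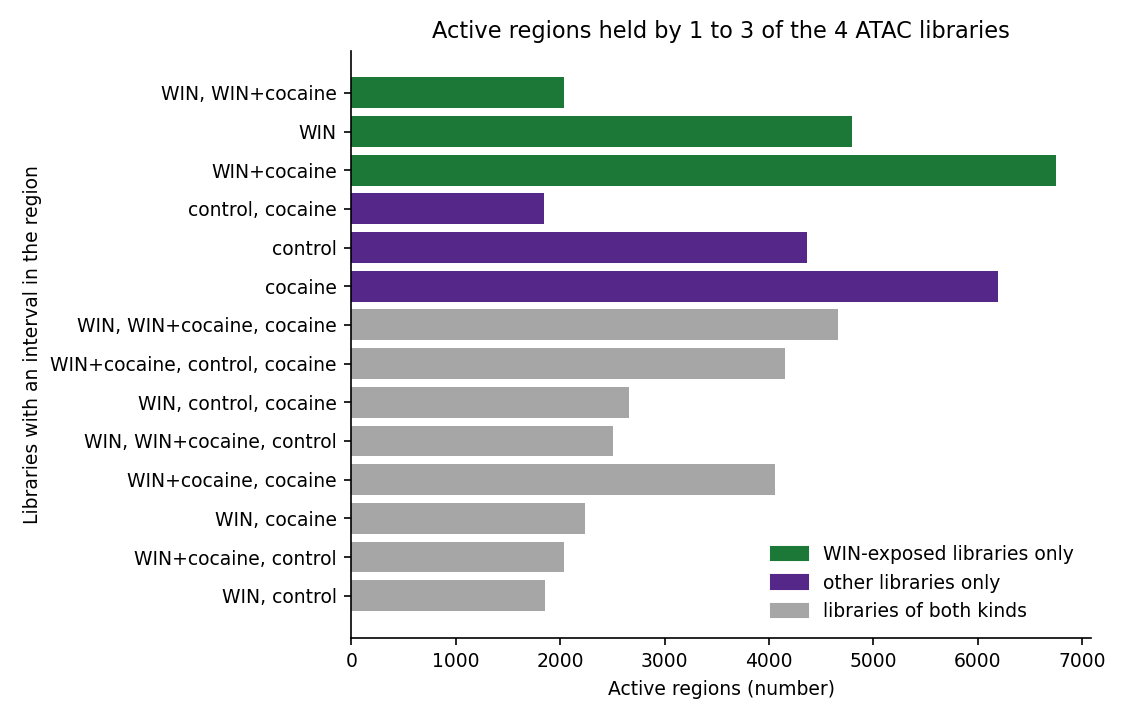
Bars give the number of active regions (x axis) that hold an interval of exactly the libraries named on the y axis, for every combination of 1 to 3 of the 4 ATAC libraries. The regions held by both WIN-exposed libraries only number 2041, close to the 1850 held by the other 2 only and to 3 of the 4 mixed pairs.

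A few of these regions were not weak. The strongest held by the WIN-exposed libraries only lay on chromosome 1, 11912139 to 11912396, with scores of 163 in WIN and 99 in WIN+cocaine and no interval in control or cocaine. The next, on chromosome 2, 179702801 to 179703142, scored 68 in WIN and 68 in WIN+cocaine. It was followed by chromosome 2, 136989821 to 136990141, at 84 in WIN and 67 in WIN+cocaine. A region on chromosome 7, 12432812 to 12433185, scored 65 in WIN and 71 in WIN+cocaine, and one on chromosome 1, 31120294 to 31120561, scored 64 in WIN and 60 in WIN+cocaine. Having been chosen as the strongest, all 5 lay above the WIN-exposed-only medians of 24 and 26. They were also above the medians of shared regions. The 5 strongest of the opposite kind, found in control and cocaine only, reached similar scores. Chromosome 17, 38204729 to 38205038, scored 77 in control and 81 in cocaine, and chromosome 13, 82755888 to 82756195, scored 67 in control and 84 in cocaine. The other 3 lay on chromosomes 9, 7 and 3, with scores of 56 to 69 in control and 60 to 61 in cocaine. An absent interval means no call in that library, not that the chromatin was closed.

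The rank differences of WIN against control were not those of WIN+cocaine against cocaine. Across the shared regions the difference WIN minus control had an SD of 15.6 percentile points, and WIN+cocaine minus cocaine an SD of 14.6 points. These differences share no library. Pearson's r between them was -0.04 over 49737 regions, and 48.1% of regions had the same sign in both. For cocaine the same measure, cocaine minus control against WIN+cocaine minus WIN, gave r = 0.12 and 55.1% of regions with the same sign. The mean WIN difference of a region lay within 10 points of 0 in 70.6% of regions, and was at least 20 points up in 1777 and at least 20 points down in 1742. The SD of this mean was 10.5 points for WIN and 12.3 points for cocaine.

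**Figure D2:**
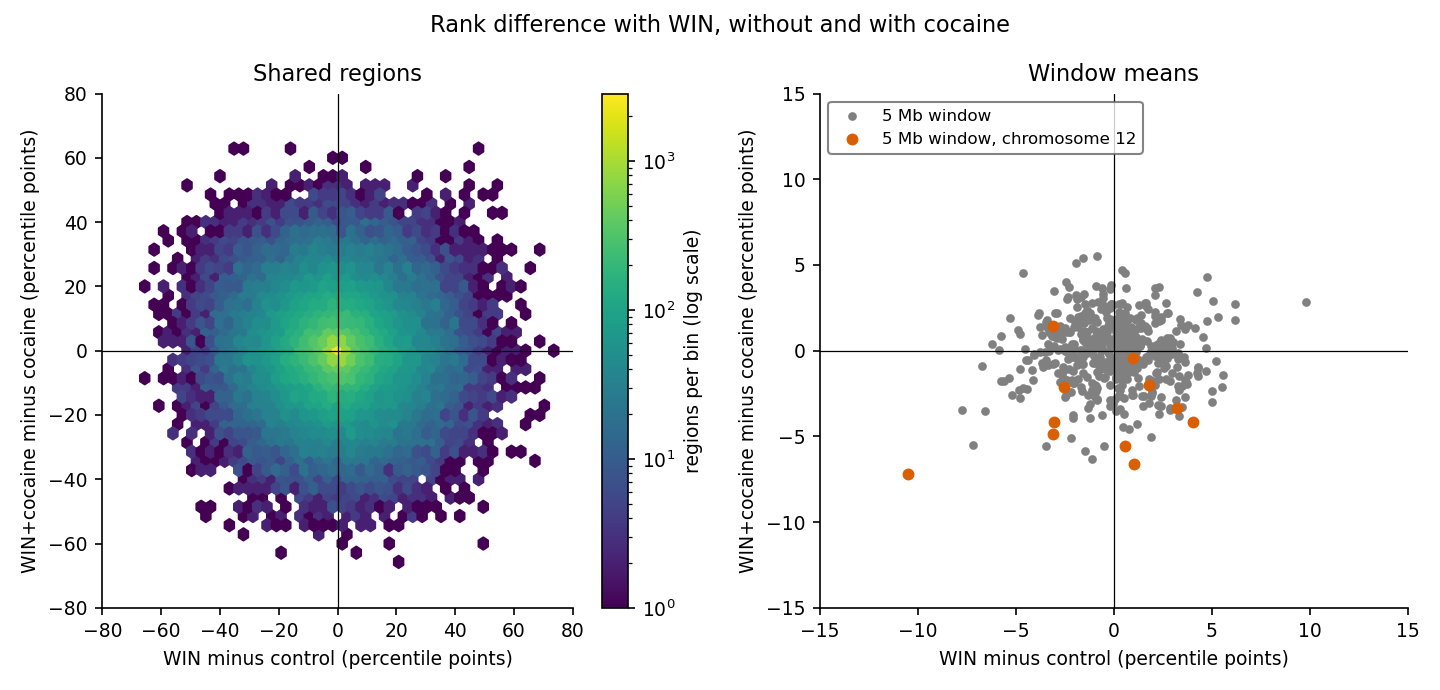
The left panel bins the 49737 shared regions by their rank difference WIN minus control (x axis, percentile points) and WIN+cocaine minus cocaine (y axis, percentile points), with colour for regions per bin on a log scale. The right panel gives the means of the same differences in 549 windows of 5 Mb with at least 20 shared regions, those of chromosome 12 in orange; in both panels the cloud has no tilt (r = -0.04 over regions and 0.03 over windows), and 1 window of chromosome 12 lies apart at the lower left.

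No single region passed the test. A limma fit of percentile ranks on WIN and cocaine, across all 49737 shared regions with Benjamini-Hochberg adjustment, called 0 regions at an adjusted p under 0.05 (0.0% called) and 0 at 0.10; the smallest adjusted p was 0.679. With 1 library per treatment, this fit has 1 residual degree of freedom, and its error is the disagreement between the WIN difference with cocaine and the one without it. At an unadjusted p under 0.05 it found 2204 regions (4.43%), 1055 higher and 1149 lower in WIN-exposed libraries. The same fit called 63 regions for cocaine (0.127% called), 28 higher and 35 lower in cocaine-treated libraries. The difference between these counts was not itself tested. The fit's prior spread did not follow the data, being too small in some bands of mean rank and too large in others. Among regions with mean ranks of 80 to 90 the residual SD was 4.14 points and the prior 3.12. Among those with mean ranks of 50 to 60 the residual SD was 12.2 points and the prior 14.6. With the spread instead taken from the regions nearest in mean rank, a choice made after the data were seen, limma called 1 region for WIN (0.00201%) and 6 for cocaine (0.0121%). At an unadjusted p under 0.05 this fit found 1673 regions for WIN (3.36%) and 4062 for cocaine (8.17%), where the default spread gave 4793 for cocaine (9.64%).

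That region was among the highest-scoring shared regions of every library. It spans 1164 bp on chromosome 7, 109204684 to 109205847, and scored 286 in WIN and 326 in WIN+cocaine, against 209 in control and 172 in cocaine. Its ranks were 99.3 in WIN and 99.4 in WIN+cocaine, against 97.6 in control and 94.9 in cocaine. Both WIN-exposed ranks exceeded both others. The rank difference was 3.13 points with a limma SE of 0.60 and an adjusted p of 0.00859 under the local spread. Under the fit with the default spread the SE was 0.97 and the adjusted p 1.00. Over the alternatives limma's adjusted p for this region ran from 5.46e-05 with ranks turned into normal scores to 1.00 with any 1 library left out, and the direction was the same in each.

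The shared regions around it also leaned upward in WIN-exposed cortex. Within 100 kb lay 8 other shared regions, and 7 of them ranked higher in WIN than in control and in WIN+cocaine than in cocaine, as did 23.4% of all shared regions. Their mean difference was 16.3 points for WIN minus control and 23.7 points for WIN+cocaine minus cocaine. The region at the upstream end by coordinate, 109111579 to 109111997, scored 76 in WIN and 64 in WIN+cocaine, against 44 in control and 37 in cocaine. The next, 109116403 to 109116897, scored 72 in WIN and 52 in WIN+cocaine, against 43 in control and 24 in cocaine. In both, the WIN-exposed ranks lay wholly above the others. A region at 109127948 to 109128460 scored 96 in WIN and 107 in WIN+cocaine, against 68 in control and 49 in cocaine. One at 109162644 to 109163202 scored 112 in WIN and 124 in WIN+cocaine, against 78 in control and 80 in cocaine. In these as well both WIN-exposed ranks exceeded both others. A gap of at least 10 rank points between the groups was found in 4 of the 9 regions of the stretch, all with the WIN-exposed ranks higher, and in that direction in 2.86% of all shared regions.

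At the other end of this stretch, the region at 109260059 to 109260598 had the smallest p of all shared regions under the default spread. It scored 152 in WIN and 238 in WIN+cocaine, against 126 in control and 106 in cocaine, a rank difference of 7.62 points (limma SE 1.64, adjusted p = 0.679). Over the alternatives limma's adjusted p for it ran from 0.00566 with scores of at least 30 to 1.00. The exception among the neighbours was 109238298 to 109238705, with scores of 43 in WIN and 30 in WIN+cocaine, against 34 in control and 33 in cocaine, where the groups overlap. Of the 18 active regions of the stretch, WIN held 13 (72.2%) and WIN+cocaine 14 (77.8%), against 11 (61.1%) in control and 9 (50%) in cocaine. Over the genome WIN held 70.6% of active regions and WIN+cocaine 76.0%, while control held 69.2% and cocaine 75.6%, so the WIN-exposed libraries were near their genome shares and the other 2 below theirs. The stretch was singled out after its values were seen, and its neighbours' values are a description with no test. Such runs are not limited to this place. Over the genome 6 runs of at least 7 consecutive shared regions were higher in both pairs, the longest of 8, and 2 were lower; the strong region ends one of the 6.

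**Figure D3:**
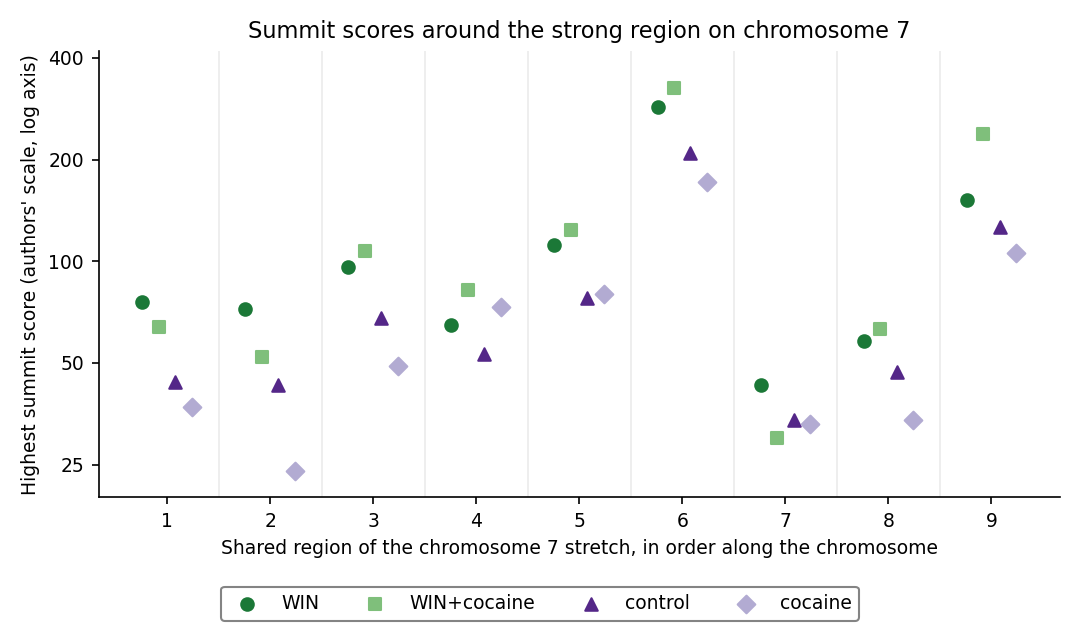
Each column is 1 of the 9 shared regions of the stretch on chromosome 7, in order along the chromosome, and each point is the highest summit score in 1 library (y axis, authors' scale, log axis). Region 6 is the strong one at 286 and 326 in the WIN-exposed libraries against 209 and 172 in the others, and in regions 4 and 7 the groups overlap.

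The other 5 regions with the smallest p under the default spread were of more than one kind. A region on chromosome 9, 16406111 to 16406791, was lower in both WIN-exposed libraries, at 100 in WIN and 96 in WIN+cocaine, against 153 in control and 150 in cocaine (rank difference -9.07 points, limma SE 2.07, adjusted p = 0.882). One on chromosome 3, 83305626 to 83306863, was alike, at 99 in WIN and 112 in WIN+cocaine, against 148 in control and 166 in cocaine. In these the 2 pairs gave similar differences. On chromosome 6, 121677701 to 121678192, the scores were 48 in WIN and 118 in WIN+cocaine, against 107 in control and 134 in cocaine, so WIN alone was low and the groups overlap. On chromosome 3, 55451543 to 55452191, they were 155 in WIN and 169 in WIN+cocaine, against 79 in control and 165 in cocaine, so control alone was low. On chromosome 20, 3146258 to 3146781, they were 127 in WIN and 118 in WIN+cocaine, against 60 in control and 93 in cocaine, with the WIN-exposed ranks above both others. None of the 5 passed the test, and limma's adjusted p was 0.882 for each. Their mean ranks ran from 80.2 to 90.8, and that of 109260059 was 92.5. In this range the default prior spread was smaller than the residual SD. At mean ranks of 80 to 90, 10.7% of regions had an unadjusted limma p under 0.05, against 2.62% with the local spread. Having the smallest p thus rests in part on the default spread.

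A plain count of regions whose groups stand apart was even in both directions. In 1422 shared regions (2.86% called) both WIN-exposed ranks were at least 10 points above both others, and in 1445 (2.91% called) at least 10 points below. With any gap, however small, these were 6911 (13.9%) and 7182 (14.4%). The same rule applied to cocaine-treated libraries against the rest found 2388 (4.8%) higher and 2633 (5.29%) lower at 10 points, and 9904 (19.9%) higher and 10156 (20.4%) lower with any gap.

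The width of the called interval moved with the score in these regions. In the 1422 higher regions, median interval widths were 393 bp in WIN and 390 bp in WIN+cocaine, while control intervals had 345 bp and cocaine intervals 338 bp. Median scores there were 45 in WIN and 50 in WIN+cocaine, against 31 in control and 35 in cocaine. The interval was wider in both pairs in 57.1% of them, against 27.3% of all shared regions. In the 1445 lower regions, median widths were 333 bp in WIN and 331 bp in WIN+cocaine, while control intervals had 381 bp and cocaine intervals 374 bp, and the interval was narrower in both pairs in 54.0%, against 21.4% of all shared regions. Width and score come from the same peak calls, so width is not a separate measurement of opening.

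The regions that stood apart were of low to middling strength. Rank differences were most scattered at mean ranks of 30 to 40, with an SD of 21.1 points for WIN minus control and 19.7 for WIN+cocaine minus cocaine. Among the 4670 regions with mean ranks of 90 to 100 these SDs were 2.09 and 2.02 points, and no region had a mean WIN difference beyond 8.16 points. Median scores of these strongest regions were 162 in WIN and 174 in WIN+cocaine, against 162 in control and 179 in cocaine. Gaps of at least 10 points were most numerous at mean ranks of 20 to 30, with 334 regions higher and 335 lower. At mean ranks of 30 to 40 there were 320 higher and 292 lower, and at 90 to 100 there were 0 higher and 0 lower. A rank can move little at the ends of its scale, so fewer gaps are possible there.

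**Figure D4:**
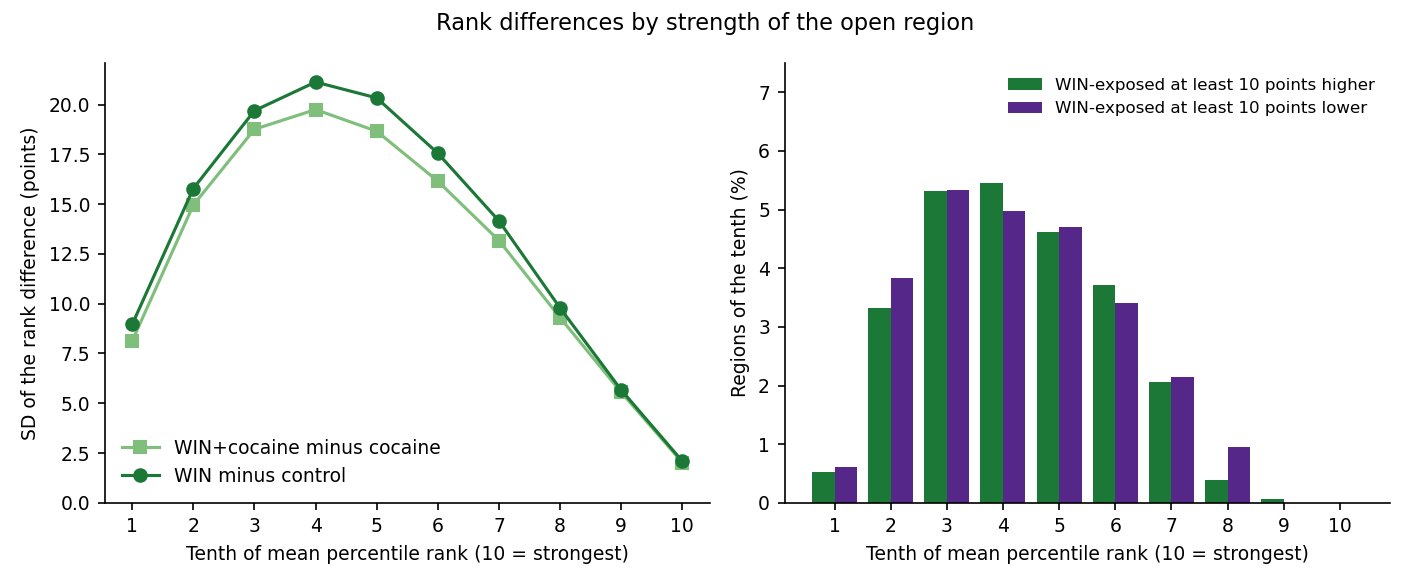
The left panel gives the SD over shared regions of the rank difference in each pair (y axis, percentile points) by band of mean rank (x axis, 10 bands, the last for mean ranks of 90 to 100). The right panel gives the percent of each band's regions with both WIN-exposed ranks at least 10 points above or below both others; the 2 directions lie close in most bands, but not at mean ranks of 70 to 80, with 18 regions higher and 45 lower, and both are at 0 in the strongest band.

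The widest separations among regions with a mean rank of at least 50 reached about 30 points. The first of the 10 higher ones, on chromosome 2, 142198398 to 142198906, scored 82 in WIN and 74 in WIN+cocaine, against 26 in control and 44 in cocaine, a gap of 32.5 points between the lower WIN-exposed rank and the higher of the others. The second, on chromosome 9, 90115594 to 90116211, scored 72 in WIN and 68 in WIN+cocaine, against 38 in control and 40 in cocaine. The third, on chromosome 8, 14512724 to 14513145, scored 65 in WIN and 68 in WIN+cocaine, against 34 in control and 44 in cocaine. The 10 lay on 7 chromosomes, had gaps of 23.9 to 32.5 points, and scored 61 to 92 in WIN-exposed libraries against 26 to 56 in the others.

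The 10 widest separations in the other direction mirrored these. The first, on chromosome 3, 153030192 to 153030621, scored 39 in WIN and 41 in WIN+cocaine, against 85 in control and 71 in cocaine, a gap of 32.2 points. The second, on chromosome 17, 24871698 to 24872170, scored 36 in WIN and 41 in WIN+cocaine, against 67 in control and 63 in cocaine. The third, on chromosome 1, 72860164 to 72860587, scored 36 in WIN and 49 in WIN+cocaine, against 73 in control and 78 in cocaine. The 10 lay on 8 chromosomes, with gaps of 24.8 to 32.2 points, and scored 32 to 49 in WIN-exposed libraries against 59 to 85 in the others. These 20 regions were chosen for their gaps, and limma's adjusted p was 1.00 for each of them.

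**Figure D5:**
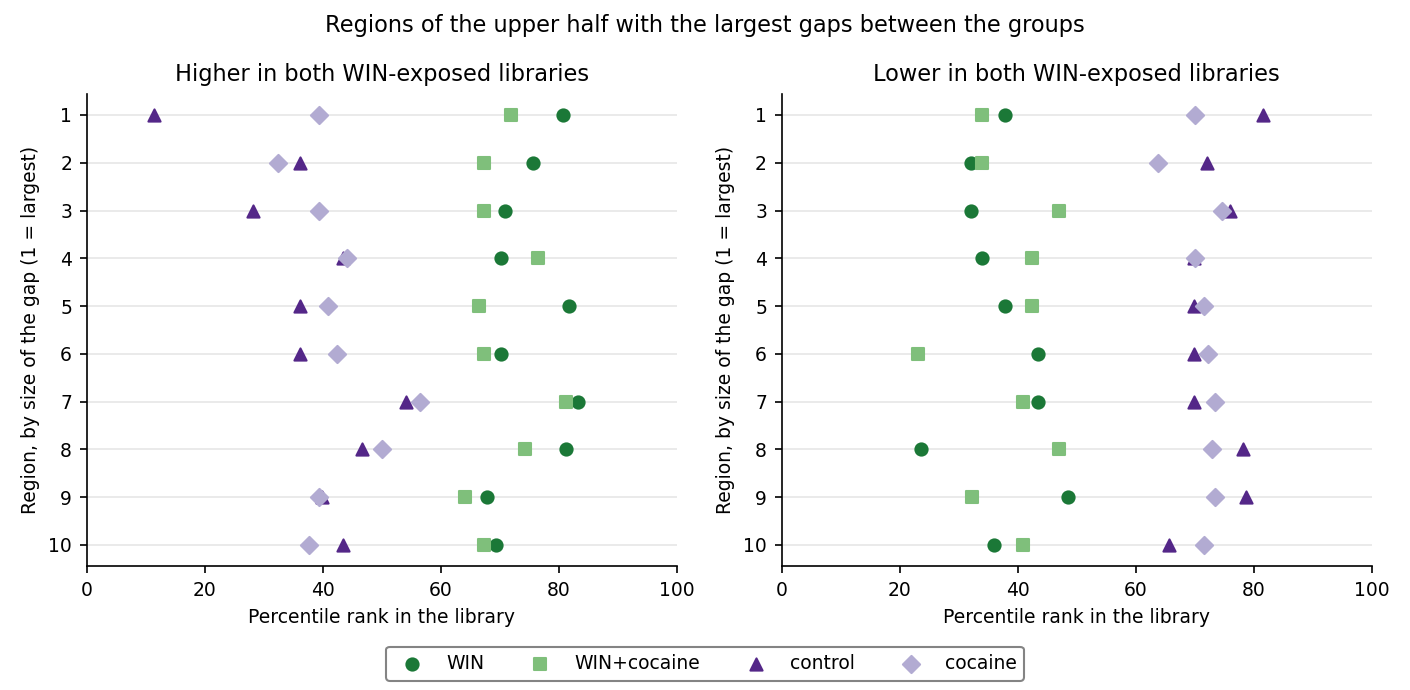
Percentile ranks in the 4 libraries (x axis) of the 10 regions with the widest gaps in each direction (y axis, 1 for the widest), among shared regions with a mean rank of at least 50. The regions were chosen for these gaps, which run from 23.9 to 32.5 points in the left panel and from 24.8 to 32.2 points in the right.

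Along the genome, WIN-exposed ranks were lowest against the others on chromosomes 12 and 1, leaving out Y, which has 6 shared regions. Mean ranks of the 778 shared regions of chromosome 12 were 46.9 in WIN and 41.4 in WIN+cocaine, against 47.8 in control and 45.1 in cocaine. The differences were -0.88 points without cocaine and -3.74 points with it. There, 17 regions (2.19%) had gaps upward and 44 (5.66%) downward, set against 2.86% and 2.91% over all shared regions. On chromosome 1, with 4718 shared regions, mean ranks were 49.0 in WIN and 48.5 in WIN+cocaine, against 50.8 in control and 49.6 in cocaine. The differences were -1.78 and -1.15 points, with 104 gaps upward (2.20%) and 190 downward (4.03%). Of the 21 chromosomes other than Y, 12 had mean differences of opposite sign in the 2 pairs.

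The lowest of 549 windows of 5 Mb lay on chromosome 12, between 5 and 10 Mb. Its 74 shared regions had mean ranks of 36.5 in WIN and 35.7 in WIN+cocaine, against 47.0 in control and 42.9 in cocaine. The mean differences were -10.5 points without cocaine and -7.19 points with it, where the SD over windows was 2.38 and 1.99 points. In this window 36 regions (48.6%) were lower in both pairs and 11 (14.9%) higher in both, against 24.6% and 23.4% of all shared regions. Gaps of at least 10 points numbered 11 downward (14.9%) and 0 upward, against 2.91% and 2.86% of all shared regions. Presence comes from the same peak calls as the scores, so it is not a separate measurement of this window. Of 162 active regions there, 60.5% were held by WIN and 72.2% by WIN+cocaine, against 74.7% by control and 77.2% by cocaine. The genome shares of WIN and WIN+cocaine, given above, were higher and those of control and cocaine lower. No active region of the window was held by the WIN-exposed libraries only, and 8 were held by the others only. Its most lowered region, 6745845 to 6746384, scored 34 in WIN and 34 in WIN+cocaine, against 72 in control and 57 in cocaine.

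The highest window lay on chromosome 1, between 180 and 185 Mb. Its 36 shared regions had mean ranks of 41.8 in WIN and 32.4 in WIN+cocaine, against 32.0 in control and 29.6 in cocaine, differences of 9.82 points without cocaine and 2.85 with it. Both windows were picked as the extremes of 549 and carry no test. Across windows the differences of the 2 pairs had a Pearson's r of 0.03. With windows of 1 Mb, 1184 of them, r was -0.11, and the lowest window was again on chromosome 12, between 6 and 7 Mb, with differences of -10.3 and -12.0 points over 30 regions.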

How the data were processed

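Nuclei of flash frozen prefrontal cortex were tagmented, per the labels' protocols. BWA and MACS2 2.1.0 were used, per the submitters' processing notes. The authors deposited 1 text file of tracks: per library an interval track and a summit track with a whole-number score, and 1 track of active regions merged over the 4 libraries. How the summit score was scaled, whether insertion sites were shifted, the read depth and the genome build are stated in neither the labels nor the file. Ranks were taken within a library because a scaling that keeps the order of scores leaves them unchanged. Depth or the caller could still change that order. The table of RNA values was not used.

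Intervals were placed by coordinate in the active regions that hold them (Python 3.11.15, numpy 2.4.6). The highest score per region was ranked over the 49737 shared regions (pandas 2.3.3, scipy 1.17.1). Percentile ranks were fitted with limma 3.58.1 in R 4.3.3 on WIN and cocaine, with a trended prior variance, and p-values were Benjamini-Hochberg adjusted over all shared regions at 0.05. Groups came from the sample titles. With 1 library per treatment, p-values measure the spread between these 4 libraries, pooled over regions, which may be technical, and no preparation batch is given.

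Named regions were, by rule, the 10 widest gaps in each direction among regions with a mean rank of at least 50, the 5 strongest regions held by 1 kind of library only (by the lower of the 2 scores), and the 3 smallest p in each direction. The chromosome 7 stretch and the windows named were singled out after their values were seen. The comparison, rules and tests were chosen with earlier results of these data known. Alternatives were a summed score, regions of mean rank 50 or more, regions with exactly 1 interval per library, scores of at least 30, normal scores, log2 scores, other gaps and overlaps, and each library left out.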

Additional observations from a re-analysis of the deposited data

Results flagged for a closer look

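On chromosome 20 the mean rank difference of 1267 shared regions had opposite signs in the 2 pairs: 1.56 points for WIN minus control and -1.53 points for WIN+cocaine minus cocaine. Mean ranks there were 52.1 in WIN and 50.2 in WIN+cocaine, against 50.6 in control and 51.8 in cocaine. The difference between the pairs was not tested, since each rests on 1 library per treatment. Chromosome 20 was 1 of 12 with opposite signs among the 21 chromosomes other than Y.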

How the results depend on the processing

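The number of shared regions called for WIN by limma was 0, and rose to 2 among regions with a mean rank of 50 or more, 1 with scores of at least 30, 1 with normal scores, 1 with log2 scores less their median and 1 with the local spread; the regions were the strong one on chromosome 7 at 109204684 (adjusted p 0.0022 in the first of these) or its neighbour at 109260059 (0.00601), or both. With the cocaine term dropped and each library left out it ran from 0 to 2, and the regions then called lay on other chromosomes: on 5 and 6, both lower, without WIN+cocaine, and on 3 without cocaine. Regions at least 10 points higher numbered 690 at a mean rank of 50 or more, 941 with scores of at least 30, 2951 with a gap of 5 points, 307 with one of 20, and 4858 to 5291 with each library left out, when fewer ranks must separate. Those lower numbered 690, 960, 3000, 255 and 4798 to 5624 in the same order. For mean ranks of 50 or more and scores of at least 30, libraries were ranked anew within 23753 and 33978 regions. The main comparison ranked 49737. On the shorter lists 10 points spans fewer regions, so these gap counts are on another scale. Regions held by the WIN-exposed libraries only fell to 1322 with scores of at least 30 and those held by the others only to 1153. With equal numbers of intervals they were 1866 and 1835. The correlation between the pairs was -0.0635 at a mean rank of 50 or more. The mean difference of the lowest window ran from -10.2 to -8.69 points over 4 alternatives, which differ in their regions or scale. The -10.2 points rest on 22 regions ranked anew at a mean rank of 50 or more. The differences there were -6.53 points without cocaine and -13.8 with it. No paired analysis was possible because each treatment has 1 ATAC library, so there is no replicate number to block on; the pairs compared here are matched on cocaine, which the fit holds as a term, and without that term it called 0 regions as well.

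Without a second library per treatment, a WIN difference cannot be told apart from a difference between libraries. Depth and the scaling of scores are unknown, and ranks compress change in the strongest regions.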
